A study of Mus musculus with 2 samples.

Results

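The genes described here are 2 FoxO transcription factor genes, Foxo1 and Foxo3, and 8 genes known as FoxO targets, namely Ccng2, Txnip, Irs2, Pik3ip1, Sesn1, Sesn3, Cited2 and Bcl6. They were taken from a list of 10 symbols, and a gene had a value where a probe set of the array was annotated to it and to no other gene. This gave 9 genes of the 17874 measured, each read by 1 probe set. Foxo3 has no value here, because the 1 probe set annotated to it also names another gene. RNA levels come from 2 Affymetrix mouse arrays, run on samples enriched for colony-forming unit erythroid (CFU-E) cells. These are red cell progenitors of the fetal liver that depend on erythropoietin. RNA of hepatocyte markers was bright on both arrays as well, so the values are those of the whole preparation.

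The cells came from livers of embryos at gestational day 13.5, with pools of 40 to 50 livers per sort. They were enriched by lysing red cells and removing cells that carried myeloid, lymphoid, megakaryocytic or late erythroid surface antigens. The protocol describes EpoR-/- embryos, which lack the erythropoietin receptor, whereas the genotype label of both samples reads Epo KO. The protocol names the strain BALB/c for the embryos, and the 0 h sample alone carries it as a label. Both samples were held without growth factors for 1 h in Panserin 401 with 2-mercaptoethanol and BSA. The 0 h cells (1 array) were then lysed, and the 3 h cells (1 array) were first kept for 3 h in Panserin 601. The labels conflict on the 3 h cells, since the treatment field lists added growth factors and the protocol says there were none, so the samples are named by time only. The comparison is 3 h of culture against the start. The medium changed along with time, and added factors may have too, so these cannot be told apart. No sample with the receptor was analysed here, so nothing below concerns the effect of the receptor or of erythropoietin. There are no replicates. Differences are therefore given without error or test, and having 1 array per time limits how precise they are.

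FoxO proteins are forkhead transcription factors that work in the nucleus when growth factor signalling is low. Insulin, stem cell factor and erythropoietin activate PI3K and AKT, which phosphorylate FoxO so that 14-3-3 proteins hold it in the cytoplasm. FoxO targets slow the cell cycle, limit oxidative damage and adjust insulin and mTORC1 signalling, and in red cell precursors FoxO3 is known for its part in antioxidant defence and maturation. Most of this control acts on the protein, which arrays of RNA do not see.

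Promoter sequences of the 4 genes that differed most between the arrays are shown to let the reader see what lies in front of each start. They are the 250 bases before the start on the coding strand, from RefSeq on GRCm38.p6. Capitals mark matches to 3 motifs, searched on both strands: the FoxO binding element GTAAACA, the insulin response element core CAAAACA, and a pair of CACGNG boxes with 5 bases between them, as in the carbohydrate response element. Ccng2 lies on chr5:93267323-93267572, Cited2 on chr10:17722978-17723227, Txnip on chr3:96557707-96557956 and Sesn3 on chr9:14276051-14276300, all on the + strand.
Ccng2: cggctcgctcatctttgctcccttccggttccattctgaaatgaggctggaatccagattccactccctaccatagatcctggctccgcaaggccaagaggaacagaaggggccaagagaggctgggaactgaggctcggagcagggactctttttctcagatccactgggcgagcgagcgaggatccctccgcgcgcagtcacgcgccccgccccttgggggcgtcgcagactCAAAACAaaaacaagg
Cited2: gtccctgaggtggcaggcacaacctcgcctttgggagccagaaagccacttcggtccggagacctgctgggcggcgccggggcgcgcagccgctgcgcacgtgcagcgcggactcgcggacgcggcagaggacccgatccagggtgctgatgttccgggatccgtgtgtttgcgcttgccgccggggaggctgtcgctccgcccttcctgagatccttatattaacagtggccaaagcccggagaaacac
Txnip: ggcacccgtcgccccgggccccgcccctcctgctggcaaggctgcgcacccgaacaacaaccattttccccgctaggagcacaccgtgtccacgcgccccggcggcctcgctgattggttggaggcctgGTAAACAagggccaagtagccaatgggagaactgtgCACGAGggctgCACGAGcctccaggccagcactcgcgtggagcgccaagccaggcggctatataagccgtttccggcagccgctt
Sesn3: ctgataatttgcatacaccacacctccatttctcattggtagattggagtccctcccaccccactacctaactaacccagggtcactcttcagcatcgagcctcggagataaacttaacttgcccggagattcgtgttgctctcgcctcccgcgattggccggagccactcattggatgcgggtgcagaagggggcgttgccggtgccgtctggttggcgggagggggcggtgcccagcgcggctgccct

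The Txnip promoter held GTAAACA at position -121 and the CACGNG pair from position -85, where the base before the start is -1. Ccng2 held CAAAACA at position -16, and Cited2 and Sesn3 held none of the 3 motifs in these windows. All 10 genes had at least 1 promoter entry of 300 bases (250 before and 50 after the start), and Sesn1 and Bcl6 had 2 starts each, making 12 entries. GTAAACA was found in 2 of the 12, those of Txnip and of 1 start of Sesn1, against 3.65% of all 32851 promoters of that length. CAAAACA was found in 2 of the 12, those of Ccng2 and Irs2, against 6.28%. The spaced CACGNG pair was found for Txnip alone, against 0.0487% of all promoters. It was searched as 1 fixed pattern, so other forms of the carbohydrate response element were not counted. Txnip is already known to respond to glucose, so the match is not a new result about it. No match among these genes overlapped another. The Sesn1 match begins at position 23 after the start, on the reverse strand, and is shown as a window of 27 bases at chr10:41810586-41810612 on the + strand.
Sesn1: aaccttctacTGTTTACcagccttttg
A match describes these letters in these windows only and shows no binding.

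The deposited values are on a log2 scale from RMA, a standard processing of Affymetrix arrays, and differences are 3 h minus 0 h. A gene was counted where its higher value reached 5.70, the middle of all values over both arrays, which serves as the floor. Of the 9 measured genes 7 reached it at both times, and Pik3ip1 and Bcl6 at neither. A gene under the floor may still be expressed. Among the 7, Ccng2 and Cited2 were at least 1.5-fold higher at 3 h, where 6.94% of the 9284 genes at or above the floor were higher by that much. None was at least 1.5-fold lower, where 4.80% of those genes were, with Sesn3 nearest to that bound. None was 2-fold higher or lower, against 2.00% and 0.872% of the same genes. Of the 7 genes 4 were higher and 3 lower, with a median difference of 0.09, against 0.01 for all genes at or above the floor. These genes therefore split by direction, and the set had no common shift. The shares of 6.94% and 4.80% and the median of 0.01 are also the background for each list below. How many of all counted genes were merely higher or lower was not tallied, so the direction counts of the lists below have no background share. The median of 0.01 for all counted genes shows only that no fewer were higher than lower.

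**Figure D1:**
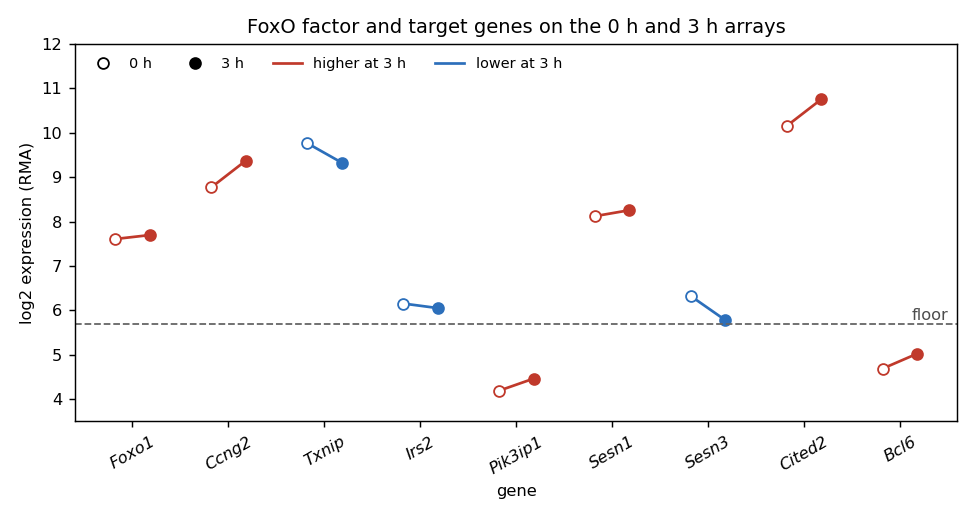
Log2 expression of the 9 measured genes (x axis, 1 gene each) on the 0 h array (open circles) and the 3 h array (filled circles); the dashed line is the floor of 5.70. Ccng2 and Cited2 have the largest upward steps and Sesn3 and Txnip the largest downward ones; heights of different genes come from different probe sets and are not to be compared.

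The factor gene itself differed little. Foxo1, which encodes a FoxO factor prominent in insulin responses, had a log2 value of 7.61 at 0 h and 7.70 at 3 h. The difference of 0.09 is 1.06-fold. Of the genes at or above the floor 39.8% were higher by at least as much (77.3% in either direction). Foxo4, the other FoxO gene with a value, had 7.02 and 7.04, a difference of 0.02. Its sign changed with quantile normalization (-0.02) and with removal of an intensity trend (-0.0097). Foxo6 was not analysed here. Neither measured FoxO gene differed by 1.5-fold, and FoxO protein, its phosphorylation and its place in the cell were not measured.

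Ccng2 encodes cyclin G2, an unusual cyclin that holds cells back from division and is a classic FoxO target. Its log2 value was 8.77 at 0 h and 9.37 at 3 h. That is a difference of 0.60, or 1.52-fold, and 6.58% of counted genes were higher by at least as much (10.9% in either direction). Its relative Ccng1, which encodes cyclin G1 and is best known as a p53 target, was also higher, at 9.59 and 10.28 (1.61-fold). All 5 measured genes of the list of cyclin G relatives were higher at 3 h, with a median difference of 0.26. Ccng1 alone among them reached 1.5-fold, where 6.94% of all counted genes were higher by that much. The probe set of Ccng1 carries a suffix that marks possible matches to several transcripts or genes.

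Cited2 encodes a coregulator that competes with HIF-1 for the coactivators CBP and p300 and is needed for fetal liver blood formation. It read 10.16 on the 0 h array and 10.76 on the 3 h array (log2), again a difference of 0.60, or 1.52-fold. Of counted genes 6.60% were higher by at least as much (10.9% in either direction). The 2 related CITED genes went in opposite directions. Cited4 had 9.12 and 9.73 (1.53-fold higher, from a suffixed probe set), and Cited1 had 10.27 and 9.77 (1.41-fold lower). Hif1a, the HIF-1 subunit gene (suffixed probe set), differed by 0.57, just under 1.5-fold, and by 0.59 after quantile normalization and 0.60 after removal of an intensity trend, both past it. Crebbp, which encodes CBP, differed by 0.10. Of the 4 counted genes on the list of CITED2 partners, 3 were higher and 1 lower. Both Ccng2 and Cited2 lie just past the 1.5-fold bound, which is 0.58 on the log2 scale (0.585 before rounding).

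**Figure D2:**
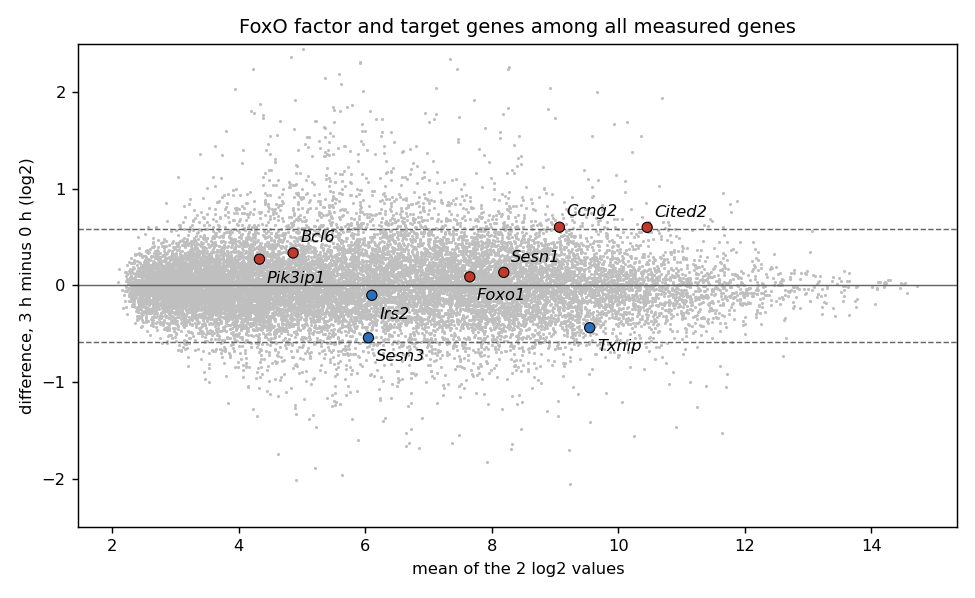
Difference between the arrays (y axis, log2, 3 h minus 0 h) against the mean of both log2 values (x axis) for all 17874 genes in grey, with the 9 FoxO genes in red (higher at 3 h) and blue (lower); dashed lines mark 1.5-fold, and 17 genes lie beyond the plotted limit of 2.5 in either direction. Ccng2 and Cited2 sit just above the upper dashed line, Sesn3 just inside the lower one, and the other 6 lie between the lines.

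Txnip went the other way. It encodes the thioredoxin-interacting protein, an arrestin that binds thioredoxin and limits glucose uptake, and FoxO and the glucose-responsive factors MondoA and ChREBP are known to induce it. Its log2 value was 9.77 at 0 h and 9.33 at 3 h, a difference of -0.44 (1.36-fold lower). Of counted genes 8.66% were lower by at least as much as Txnip (20.4% in either direction). Arrdc4, a paralog that MondoA also induces, had 6.62 and 6.44, a difference of -0.19. Mlxip, the MondoA gene, differed by -0.38, its partner gene Mlx by 0.16, and Mlxipl, the ChREBP gene, was below the floor. The 12 counted genes of thioredoxin and MondoA partners had a median difference of -0.04, with 4 higher, 8 lower and none past 1.5-fold. Of the 8, Txn1 was counted through its 0 h value alone. The largest difference among them was that of Hk2, the hexokinase 2 gene (-0.57). The other alpha-arrestin genes measured were Arrdc1 (0.21, suffixed probe set), Arrdc2 (0.16) and Arrdc3 (-0.03), so these relatives of Txnip did not share 1 direction.

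The sestrin genes differed from one another. Sestrins are stress-induced proteins that restrain mTORC1 when amino acids or growth signals are scarce. Sesn3, a sestrin gene closely tied to FoxO, read 6.32 on the 0 h array and 5.78 on the 3 h array (log2). Its difference of -0.54 is 1.46-fold lower, with 5.86% of counted genes lower by at least as much (13.9% in either direction). Its 3 h value lies just above the floor. Sesn1, which FoxO3 and p53 induce, had 8.12 and 8.26, a difference of 0.13 (1.10-fold higher, from a suffixed probe set). Sesn2, which the ATF4 stress response also induces, had 8.78 and 8.73, a difference of -0.05. Sesn3 alone of the 3 approached 1.5-fold, and it passed that bound after quantile normalization, at -0.61.

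The RNA of genes for proteins that sestrins act through was measured as well. Of 18 counted genes of sestrin and mTORC1 amino acid sensing, 1 passed 1.5-fold upward and 2 downward (median difference -0.12). Of all counted genes 6.94% and 4.80% did so. The median was -0.01 with no floor and with a floor of 6.70, and Deptor is not counted at the higher floor, which leaves 1 gene downward. Rragd, a Rag GTPase gene of the mTORC1 docking complex, was higher (6.86 and 7.52, 1.59-fold). Deptor, which encodes an mTOR inhibitor (6.64 and 5.94, 1.62-fold lower), and Wdr59, which encodes a subunit of the GATOR2 complex bound by sestrins (7.47 and 6.87, 1.52-fold lower), were lower. Mtor itself differed by 0.10.

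Irs2 and Pik3ip1 act at the top of the pathway. Irs2 encodes the insulin receptor substrate through which FoxO is known to raise insulin sensitivity. Its log2 value was 6.15 at 0 h and 6.05 at 3 h, a difference of -0.10. Of counted genes 35.7% were lower by at least as much as Irs2 (73.7% in either direction). Its relative Irs1 had 7.41 and 7.81, a difference of 0.40. Pik3ip1, which encodes a membrane protein that inhibits PI3K, had 4.19 and 4.46, both below the floor. Its difference of 0.27, from a suffixed probe set, was matched or passed by 13.8% of the 8590 genes below the floor (27.6% in either direction). Neither Irs2 nor Pik3ip1 differed by 1.5-fold.

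Bcl6 encodes a repressor of transcription that FoxO induces and STAT5 represses in lymphoid and leukaemic cells. It had 4.69 at 0 h and 5.03 at 3 h, both below the floor. The difference of 0.34 was matched or passed by 9.91% of genes below the floor (19.3% in either direction). RMA shrinks differences between dim signals, so the differences of Bcl6 and Pik3ip1 are less certain than those of brighter genes. Its paralog Bcl6b was also below the floor (3.62 and 3.65). Of 5 counted genes of BCL6 corepressors and relatives, 4 were lower and Zbtb16 was higher, none by 1.5-fold. Zbtb16 had the largest difference (0.50, suffixed probe set), but it was counted through its 3 h value alone (5.33 and 5.83), which fixes its direction. Prdm1, a gene that BCL6 represses, was below the floor and had a larger difference (-1.14, from 5.19 to 4.04). Whether the differences of Bcl6 and Prdm1 are linked was not tested.

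The list of inputs to FoxO holds receptors, kinases and scaffolds, and also phosphatases that oppose them, so its directions are not those of signalling. On it 20 genes were measured and all 20 were counted. Of these 17 were higher and 3 lower, with a median difference of 0.12, and 1 reached 1.5-fold (6.94% of all counted genes were higher by that much). That gene was Sgk1, which encodes a kinase that phosphorylates FoxO3 at sites shared with AKT (8.78 and 9.57, 1.73-fold higher). Among those next in size, Jak2, the kinase gene of the erythropoietin receptor, differed by 0.54 and Pik3cb, a PI3K subunit gene, by 0.53. Akt1 (0.01) and Akt2 (-0.01) hardly differed, and Kit, the stem cell factor receptor gene, differed by 0.02. The sign of Akt1 changed with median centring (-0.00020), and that of Rictor (0.02) with quantile normalization (-0.0028). Epor had 7.08 and 6.89. Whether its probes lie inside the deletion is not known, so it checks nothing about the genotype.

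Genes of proteins that bind or modify FoxO had a median difference of 0.09 over 19 counted genes, with 14 higher and 5 lower. The signs of Setd7 (0.0035) and of the 14-3-3 gene Ywhah (-0.0454) changed with quantile normalization (-0.0282 and 0.0063). Mdm2, which encodes a ubiquitin ligase for p53 and FoxO and is itself a p53 target, was the 1 gene past 1.5-fold (9.26 and 9.89, 1.54-fold higher, from a suffixed probe set). The 14-3-3 genes had differences from -0.12 (Ywhag) to 0.12 (Ywhaq), and the deacetylase gene Sirt1 differed by 0.34. Of 10 counted genes of other forkhead factors none was 1.5-fold higher, where 6.94% of all counted genes were. Foxa3 (7.43 and 6.61, 1.77-fold lower, from a suffixed probe set), a liver forkhead factor gene, and Foxj2 (7.03 and 6.44, 1.51-fold lower) were lower. Of all counted genes 4.80% were at least 1.5-fold lower.

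Other known FoxO targets, drawn from lists by function, went both ways. Of 58 measured genes 43 were counted, and 23 of them were higher and 20 lower at 3 h, with a median difference of 0.02. At least 1.5-fold, 4 were higher (9.30%) and 7 lower (16.3%), beside the 6.94% and 4.80% of all counted genes. These lists were written with earlier results of these data known, and nothing particular to them follows from the counts. Several of these genes have other strong inducers, such as p53 for Cdkn1a and Trp53inp1, and FoxO represses Ccnd1.

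In the cell cycle and differentiation list, 7 of 10 counted genes were higher and 3 lower, with a median of 0.27. Cdkn1a, the gene of the cell cycle inhibitor p21, was 2.29-fold higher (8.86 and 10.06). Ccnd1, the cyclin D1 gene (11.16 and 10.36, 1.75-fold), and Klf2, a quiescence factor gene (7.61 and 6.77, 1.80-fold), were lower. In the cell death list the median was -0.37 over 6 genes, 2 higher and 4 lower, and -0.23 over all 8 measured genes with no floor. Trp53inp1, a gene of stress-induced death and autophagy, was 3.19-fold higher (9.09 and 10.77). Trib3, which encodes an inhibitor of AKT (8.44 and 7.31, 2.18-fold, suffixed probe set), and Bnip3, a mitophagy gene (11.38 and 10.67, 1.63-fold), were lower. The best known FoxO death targets, Bcl2l11 (-0.35) and Bbc3 (-0.39), which encode Bim and Puma, were lower by less than 1.5-fold.

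The antioxidant and DNA repair list had a median of 0.02 over 8 genes, 4 higher and 4 lower. Sod2, the mitochondrial superoxide dismutase gene, was 1.64-fold lower (8.18 and 7.46), while Cat, the catalase gene, differed by 0.29. The metabolism and signalling list had a median of 0.07 over 10 genes, 6 higher and 4 lower. Igfbp1, a liver-secreted binding protein of insulin-like growth factors and a classic FoxO target, was 2.76-fold lower (11.64 and 10.18). Adipor1, the adiponectin receptor gene, was 1.55-fold higher (6.43 and 7.06), but its difference of 0.58 after quantile normalization was just short of 1.5-fold.

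The autophagy and protein breakdown list had a median of -0.07 over 9 genes. Map1lc3b, the LC3 gene, was 1.50-fold higher (10.61 and 11.20), short of the bound once differences were centred on the median gene (0.58), and Ulk1, an autophagy kinase gene, was 1.69-fold lower (8.69 and 7.93). The 5 measured genes of lymphoid homing and recombination were all below the floor on both arrays.

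**Figure D3:**
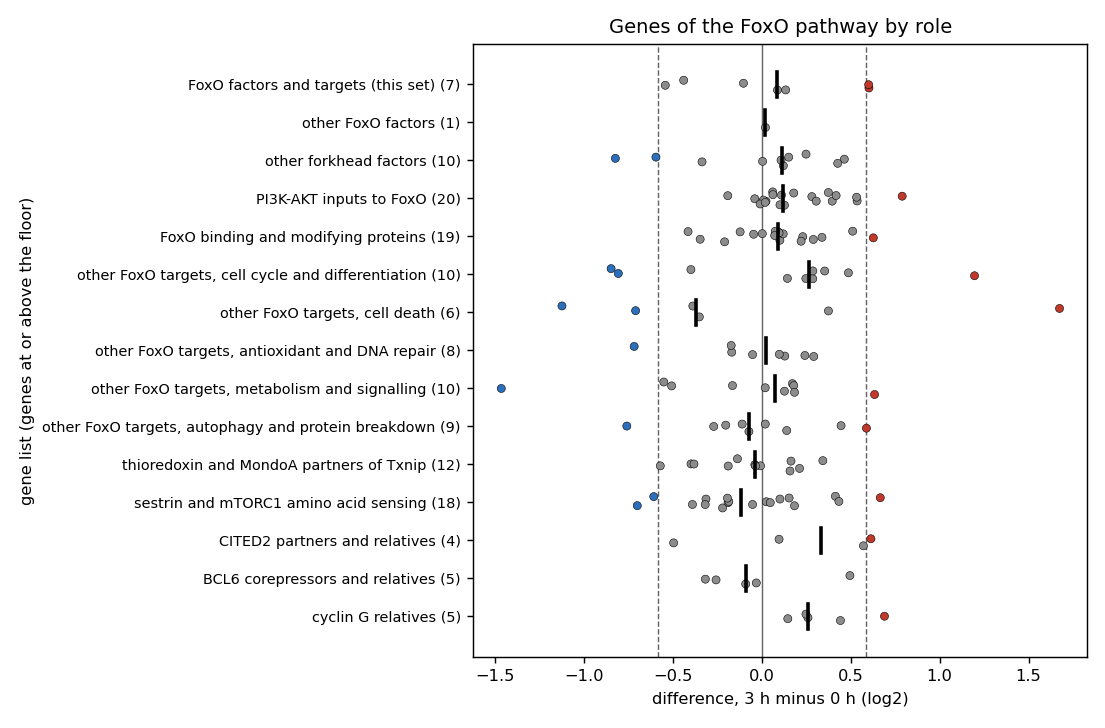
Difference between the arrays (x axis, log2, 3 h minus 0 h) for genes at or above the floor, 1 point per gene and 1 row per list, with the number of genes in parentheses; black bars are medians, dashed lines mark 1.5-fold, and red and blue points lie past it. The medians of most lists lie near 0, from -0.37 for cell death targets (-0.23 with no floor) to 0.33 for CITED2 partners (0.09 with no floor), and points past 1.5-fold occur on both sides.

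Markers of the cell types that the samples could hold were measured beside these genes. All 14 erythroid progenitor markers reached the floor at both times, with a log2 summed signal of 14.69 at 0 h and 14.90 at 3 h. Of these markers 11 were higher and 3 lower at 3 h. The brightest were Car2 (13.24 and 13.20, a direction that turned with quantile normalization) and Klf1 (12.03 and 12.31), and the erythroid factor genes Nfe2 (1.11) and Gata1 (0.83) had the largest differences. All 18 measured hepatocyte markers also reached it (16.95 and 16.86), and 16 were lower and 2 higher at 3 h. Afp (14.60 and 14.53) and Alb (14.15 and 13.96) were brightest, and the largest differences were those of Krt8 (0.95) and Krt18 (0.88), which encode keratins.

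Markers of other blood cells were read in the same way, and a marker that reached the floor at 3 h alone had to be higher there. Of all 17874 genes 9284 reached the floor on at least 1 array. Granulocyte and mast cell markers reached the floor in 7 of 16 at 0 h and 11 of 16 at 3 h (12.69 and 13.63), led by Mpo (0.45), S100a9 (1.94) and S100a8 (1.70). Macrophage and monocyte markers did so in 6 of 15 at both times (11.06 and 12.06), and the lysozyme genes Lyz1 (2.00, suffixed probe set) and Lyz2 (1.83) had the largest differences. Of those 6 genes 5 were higher and Vcam1, a marker of erythroblastic island macrophages, was 1.97-fold lower (9.22 and 8.25), while C1qa, C1qb, C1qc, Adgre1 and Cd68 stayed under it. Of the granulocyte and mast cell genes, Lcn2, Camp, Ngp and Prg2 reached the floor at 3 h alone, as did Pf4, Gp1bb and Gp9 of the megakaryocyte, Ighm of the lymphoid and Pecam1 of the endothelial genes. The counts at 0 h and 3 h were 1 and 4 of 8 for megakaryocyte markers (8.39 and 8.80), with Itga2b (-0.09), Gp9 (0.47) and Gp1bb (2.19). They were 1 and 2 of 12 for lymphoid markers (8.61 and 9.08), with Ptprc (0.69) and Ighm (0.74). Ptprc, the 1 that reached the floor at 0 h, is not restricted to lymphoid cells, so these values are not purely lymphoid. The counts were 4 and 5 of 12 for endothelial and stromal markers (10.90 and 11.53), with Acta2 (1.08), Col1a1 (0.37) and Col3a1 (0.27). The part of these shifts in the differences of Ccng2, Cited2, Txnip and Sesn3, and of Igfbp1 and Foxa3, which hepatocytes express, was not tested. In such bulk samples fewer cells of a type and less RNA per cell cannot be told apart.

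The differences of the 9 genes were also set side by side under the other ways of processing. Ccng2 ranged from 0.59 to 0.61 and Cited2 from 0.59 to 0.63, both past 1.5-fold in each. Txnip ranged from -0.45 to -0.42 and Sesn3 from -0.61 to -0.54. Foxo1 (0.06 to 0.09), Sesn1 (0.12 to 0.13), Irs2 (-0.17 to -0.10), Pik3ip1 (0.26 to 0.29) and Bcl6 (0.31 to 0.35) stayed within 1.5-fold in each setting that gave a value. With 1 probe set per gene, taking the brightest probe set could not change these differences. These ranges describe processing of the same 2 arrays and hold no biological variation.

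**Figure D4:**
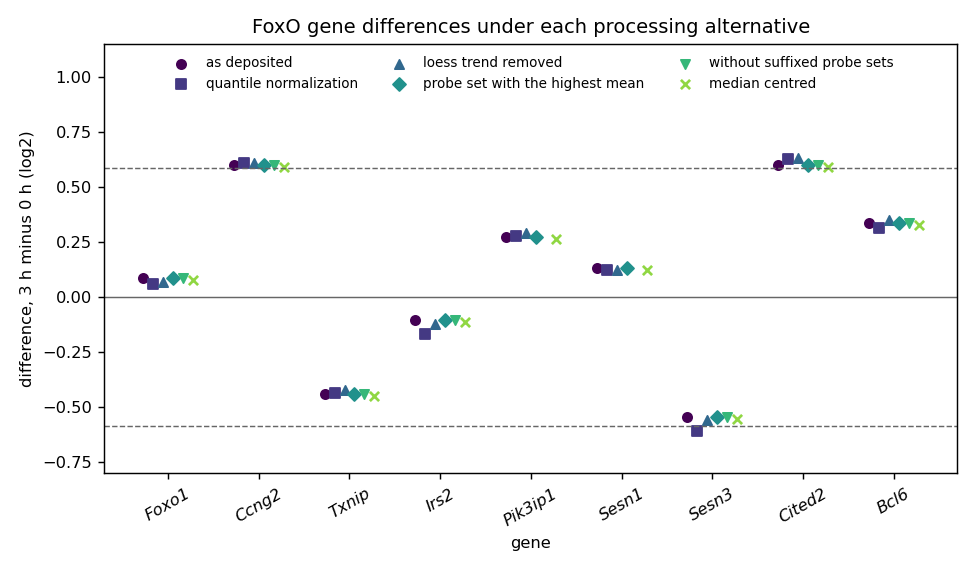
Difference between the arrays (y axis, log2, 3 h minus 0 h) of each of the 9 FoxO genes (x axis) as deposited and under 5 alternatives, 1 symbol per setting; dashed lines mark 1.5-fold, and Pik3ip1 and Sesn1 have no value without suffixed probe sets. No gene changes sign, and Sesn3 crosses the lower line with quantile normalization, at -0.61.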

How the data were processed

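The authors deposited log2 values for 20666 probe sets, made with affy and RMA per the submitters' processing notes. Their versions, and which arrays were normalized as 1 batch, are not stated there. RMA as usually run gives arrays 1 common distribution, so a shift of all transcripts could not be seen. Arrays have no read depth.

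Gene names came from GEO's platform annotation (17918 with 1 gene, 79 with several, 2669 with none), and those with several genes were not used. Entrez IDs matched 17767 to RefSeq (GRCm38.p6), changing 0 symbols. Probe sets of a gene were averaged. Suffixed probe sets also read Kit, Akt2, Mlx, Mlxipl, Cat, Ywhaq, S100a8, Lcn2, Lyz1, Adgre1, C1qb, Krt8, Ptprc, Ighm, Pecam1, Acta2 and Col3a1. No test was made, with 1 array per group.

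The genes and lists were chosen with earlier results of these data known. Named are the 10 genes and close relatives, each pathway gene past 1.5-fold at or above the floor, the largest difference of each list, and of each marker list the 2 brightest genes and the 2 largest differences at or above the floor. Crebbp, Hif1a, Mlx, Mlxip, Mlxipl, Mtor, Jak2, Pik3cb, Akt1, Akt2, Kit, Rictor, Ywhag, Ywhah, Ywhaq, Setd7, Sirt1, Bcl2l11, Bbc3, Cat, Arrdc1, Arrdc2, Arrdc3, Txn1, Prdm1, Pecam1, Pf4, Lcn2, Camp, Ngp, Prg2, Vcam1 and 5 other macrophage markers were named after their values were seen.

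Alternatives were quantile normalization of both columns, removal of a loess trend (span 0.3), the brightest probe set, probe sets without the suffixes _s, _x or _a, centring on the median gene, no floor, a floor of 6.70, 2-fold and the mean. Python 3.11.15, numpy 2.4.6, pandas 2.3.3, statsmodels 0.14.6 and matplotlib 3.10.9 were used, and the steps were tested on simulated data. The planted differences were larger than those of the FoxO genes and lay in genes well above the floor. They therefore say nothing about differences close to 1.5-fold.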

Additional observations from a re-analysis of the deposited data

How the results depend on the processing

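Of 74 values of the FoxO gene set compared under alternatives, 3 crossed the 1.5-fold bound or moved by over 0.1 (counts by over 1.5 times). Part of these comparisons could not move. Each gene of the set and of the lists has 1 probe set, so taking the brightest leaves its difference unchanged. Leaving out suffixed probe sets likewise leaves the difference of any unsuffixed gene unchanged. With quantile normalization Sesn3 differed by -0.61 and became the 1 gene at least 1.5-fold lower. With a 2-fold threshold 0 genes were higher. The median of the set, 0.09, was -0.0070 without suffixed probe sets, which leaves out Sesn1, and 0.13 with no floor or with a raised floor, so its sign changed with the choice of probe sets. Of 420 values of the pathway lists 25 moved by more than these bounds. In 1 of these the median of the CITED2 partners went from 0.33 to -0.20 without suffixed probe sets, with 2 genes left, and to 0.09 with no floor. No paired analysis was possible because each time has 1 array. Nothing here measures how far a repeat of the experiment would differ.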
